A study of Mus musculus with 4 samples.

Results

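The 6 NMDA receptor subunit genes measured here, Grin1, Grin2a, Grin2b, Grin2c, Grin2d and Grin3a, were taken by symbol from the 32287 features of a single-nucleus count matrix. Each symbol named 1 feature, so all 6 members were found. The study dissected medial prefrontal cortex from C57BL/6J mice aged 9 weeks, 24 hours after an injection of DOI, a psychedelic agonist of 5-HT2 serotonin receptors, or of saline. Each group had 2 samples, 1 from a female and 1 from a male. All 4 samples, the saline ones too, carried scFLARE2, a tool that releases a transcription factor when calcium and light coincide, and its reporter TRE-mCherry-p2a-bReaChES. The labels do not say which cells took up these transgenes. Nuclei were profiled with 10x Genomics 3' v3.1 chemistry in 4 libraries, seen as barcode endings 1 to 4. The endings could not be matched to the samples, so the matrix counts as 1 sample, DOI and saline were not compared, and no test was made. Values are given per library to show their spread.

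An NMDA receptor is a glutamate-gated cation channel built from obligatory GluN1 subunits, encoded by Grin1, and other subunits that bind glutamate or glycine. It opens when glutamate and a co-agonist are bound and depolarisation relieves its magnesium block, and it then passes calcium, the trigger for many forms of synaptic plasticity. GluN2A and GluN2B are the main partners of GluN1 in forebrain neurons, and GluN2A gives faster decay. GluN2C and GluN2D are less sensitive to magnesium, and GluN3A lowers calcium permeability.

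The matrix held 157575088 UMIs (unique molecular identifiers, 1 per captured transcript molecule) in 22402 barcodes, and 19968985 to 57947155 UMIs per library. Among these barcodes, before filtering, 50 sequences occurred in 2 or more libraries. After filtering, 12991 nuclei with a median of 8892 UMIs remained. The nuclei formed 25 clusters, named as resembling a class from marker lists. The subunits and their partner genes took no part in the clustering. There were 17 named classes: 7 excitatory-like, 4 inhibitory-like, 5 non-neuronal-like and striatal medium spiny neuron (MSN)-like. The cortical classes held 8273 excitatory-like, 1346 inhibitory-like and 2462 non-neuronal-like nuclei, with 403 of the excitatory-like ones in no subclass. The L5 extratelencephalic (ET)-like cluster had 7 enriched ET markers, but its 10 leading genes held 1 marker of the near-projecting class and none of its own. L4/5 IT-like nuclei (IT, intratelencephalic) had 3 of 6 markers enriched, L6 IT-like nuclei 3 of 8 and Pvalb-like nuclei 4 of 10. MSN-like nuclei had 9 of 11 striatal markers enriched. Of these 334 nuclei, 224 came from library 1 and 1 from library 4.

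Free RNA and remaining doublets may add UMIs to every class, and neither was measured or tested as a source. Microglia-like nuclei, which have all 10 microglial markers enriched and should lack NMDA receptors, held 241 CPM (UMIs of a gene per 1000000 UMIs of its class) of Slc17a7, the vesicular glutamate transporter of cortical excitatory neurons. Excitatory-like classes held 189 to 280 CPM of it, inhibitory-like classes 71.6 to 94.3 CPM and MSN-like nuclei 68.0 CPM. Gad1, which makes GABA, was at 7.96 to 13.6 CPM in excitatory-like classes and 41.6 CPM in microglia-like nuclei. The microglial level is thus above that of a foreign transcript in neurons, and is used below as a guide for glia only. Slc17a7 was at 154 CPM in astrocyte-like, 188 in oligodendrocyte-like, 138 in oligodendrocyte precursor-like and 136 CPM in committed oligodendrocyte precursor-like nuclei. Gad1 was at 29.3, 27.5, 56.3 and 20.7 CPM in the same order. Microglia-like nuclei therefore give only a rough level of foreign transcripts in other glia. For the subunits, microglia-like nuclei held 73.1 CPM of Grin1, 99.3 of Grin2a, 187 of Grin2b, 5.39 of Grin2c, 4.62 of Grin2d and 20.01 of Grin3a. Glial levels near these are not read as expression.

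Promoters of 3 of the 6 members (300 bases, from 250 before to 50 after the start) are in RefSeq's GRCm38.p6 table, and are shown because these genes had unlike class patterns. Grin1 was near even across neurons, Grin2c lay in astrocyte-like nuclei and Grin2d was highest in inhibitory-like nuclei. Capitals mark the GC box GGGCGG or its reverse complement and the E box CACGTG, searched on both strands. Positions are chr2:25319138-25319437 for Grin1, chr11:115267194-115267493 for Grin2c and chr7:45866632-45866931 for Grin2d, all on the minus strand. The Grin2d window starts from a RefSeq start site inside the annotated gene.
Grin1: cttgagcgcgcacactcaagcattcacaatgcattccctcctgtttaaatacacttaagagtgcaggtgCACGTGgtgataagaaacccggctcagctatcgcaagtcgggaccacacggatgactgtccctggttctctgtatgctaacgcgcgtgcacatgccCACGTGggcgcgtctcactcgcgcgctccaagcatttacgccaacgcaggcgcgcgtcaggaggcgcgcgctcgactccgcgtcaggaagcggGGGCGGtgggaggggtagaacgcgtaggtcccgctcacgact
Grin2c: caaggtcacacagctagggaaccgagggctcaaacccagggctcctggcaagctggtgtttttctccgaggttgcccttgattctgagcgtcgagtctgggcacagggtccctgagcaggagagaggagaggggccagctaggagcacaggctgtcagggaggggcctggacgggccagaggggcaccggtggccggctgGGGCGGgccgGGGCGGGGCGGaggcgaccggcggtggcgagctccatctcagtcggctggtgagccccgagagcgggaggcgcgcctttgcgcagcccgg
Grin2d: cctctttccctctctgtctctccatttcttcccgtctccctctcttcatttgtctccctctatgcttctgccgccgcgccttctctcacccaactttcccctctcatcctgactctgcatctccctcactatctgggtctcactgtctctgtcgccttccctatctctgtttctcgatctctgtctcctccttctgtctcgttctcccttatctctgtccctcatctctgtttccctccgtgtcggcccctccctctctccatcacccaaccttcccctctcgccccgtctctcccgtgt
The Grin1 window held 1 GC box and 2 E boxes, and 33 CpG dinucleotides. The Grin2c window held 3 GC boxes, of which 2 overlap by 1 base, no E box and 22 CpGs. Neither motif occurred in the Grin2d window, which held 12 CpGs. Of all 32851 promoters in the table, 35.7% held the GC box and 7.15% the E box, and the median CpG count was 7. A match is a description of letters only.

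All 6 genes are protein-coding on the minus strand of mm10, the build of the files. Grin1 lies at chr2:25291181-25319187, Grin2a at chr16:9567898-9995560 and Grin2b at chr6:135713233-136173511. Grin2c lies at chr11:115249169-115267243, Grin2d at chr7:45831883-45878378 and Grin3a at chr4:49661611-49845744. All but Grin2a overlap other genes. Grin1os is antisense to Grin1, and Gm14329, Gm14330 and Gm26653 lie opposite Grin2b. A miRNA gene lies opposite Grin2c, Kdelr1 and Gm45441 lie opposite Grin2d, and Ppp3r2 lies inside Grin3a on its strand. Whether reads were counted by strand is not given in the sources used here, so values of these genes are uncertain to that extent.

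Kept nuclei held 45715 UMIs of Grin1, 223286 of Grin2a, 242029 of Grin2b, 665 of Grin2c, 1456 of Grin2d and 9480 of Grin3a. A UMI was seen in 76.5% of nuclei for Grin1, 79.4% for Grin2a and 86.8% for Grin2b, and in 3.31%, 9.60% and 23.9% for Grin2c, Grin2d and Grin3a. Between genes the order depends on the length used. Per kilobase of annotated exon, excitatory-like nuclei held levels of 40.6 CPM for Grin1, 113 for Grin2a and 84.7 for Grin2b. Per kilobase of gene span, the levels were 14.1 CPM for Grin1, 4.73 for Grin2a and 4.57 for Grin2b, so Grin1 was lowest of the 3 on the exon scale and highest on the span scale.

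**Figure D1:**
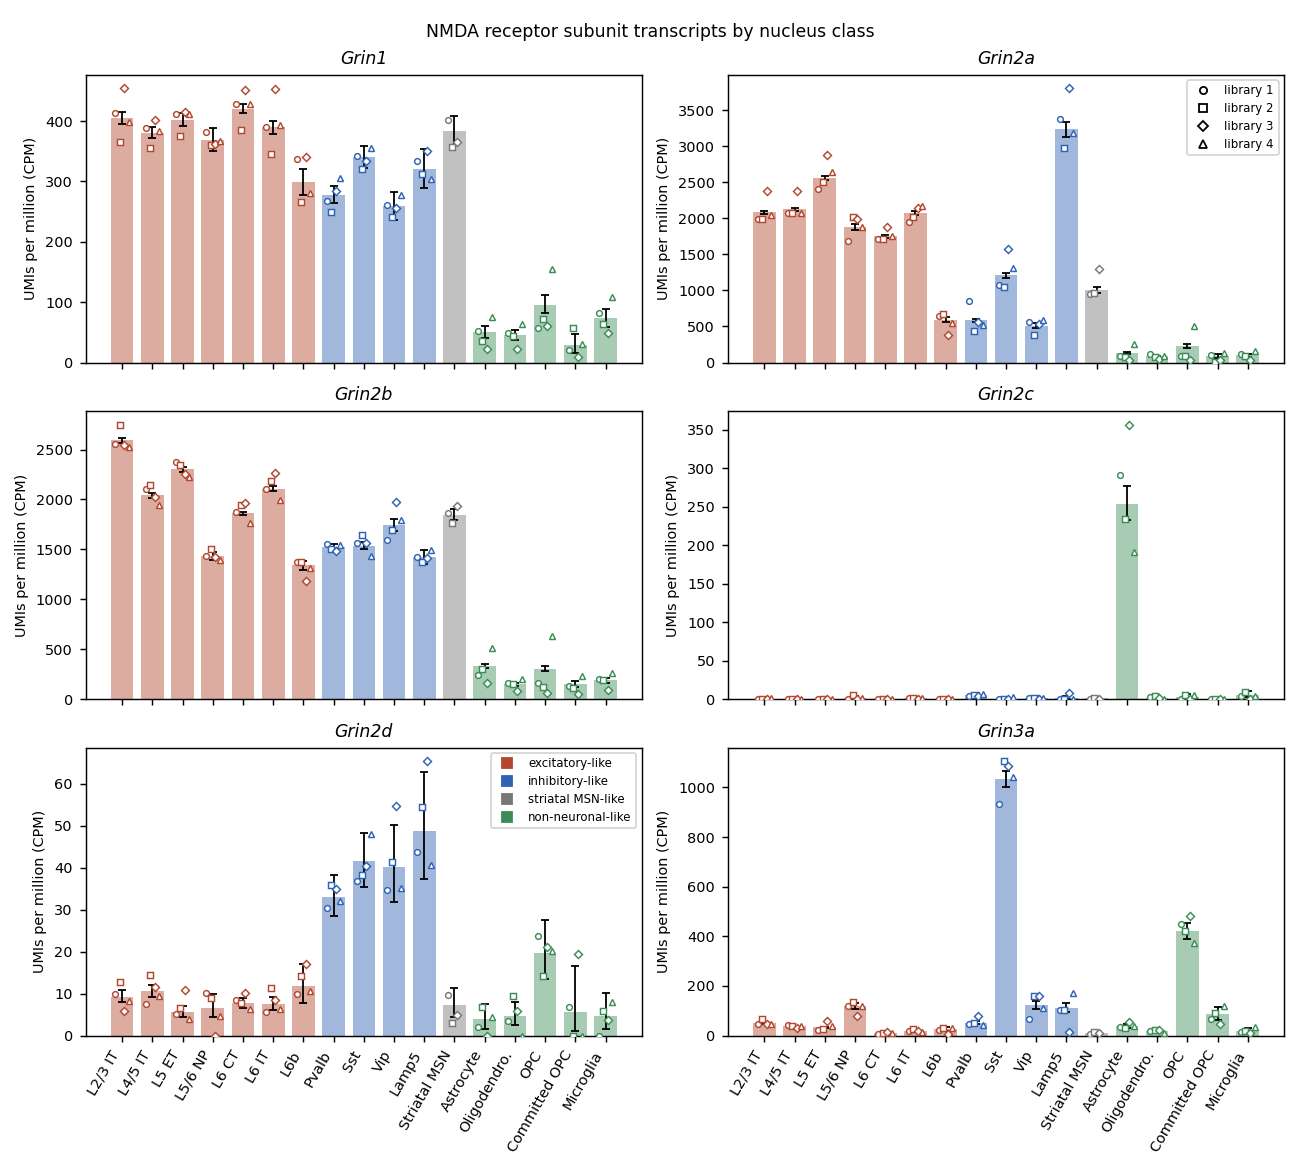
Level of each NMDA receptor subunit gene (y axis, CPM of the class, from 0) in the 17 named classes (x axis). Bars are summed nuclei with exact Poisson 95% intervals (counting error only), and small symbols are the 4 libraries, with the single MSN-like nucleus of library 4 left out. Grin1 varies little between neuron classes, Grin2a is highest in Lamp5-like nuclei at 3232 CPM, Grin2c stands out in astrocyte-like nuclei at 254 CPM, and Grin3a in Sst-like nuclei at 1033 CPM.

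Excitatory-like nuclei were set against inhibitory-like nuclei to see which subunits mark each kind. A gene was called when it had 100 or more UMIs, a ratio of CPM of 2-fold or more, and the same direction in all 4 libraries. Of the 6 subunits 5 had enough UMIs; 2 were lower in excitatory-like nuclei and 0 higher, against 7.49% and 9.14% of 15782 genes. The background holds genes used to cluster the nuclei, so the shares serve for scale only. The median log2 ratio was 0.40 over the 5 subunits and -0.13 over all genes.

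Grin3a, the subunit that lowers calcium permeability, was at 30.7, 41.7, 34.1 and 33.4 CPM in excitatory-like nuclei of libraries 1 to 4, against 339.6, 383, 336 and 406 CPM in inhibitory-like nuclei. The groups do not overlap, and the log2 ratio was -3.42 (95% interval -3.48 to -3.35), a 10.7-fold lower level in excitatory-like nuclei. It was -1.22 with at most 1% mitochondrial UMIs, where no Sst-like class was named. Sst-like nuclei held 4153 of the 4826 Grin3a UMIs of inhibitory-like nuclei, and the other inhibitory-like subclasses together held 75.3 CPM. L5/6 NP-like nuclei, an excitatory-like class, held 118 CPM, between Lamp5-like (113 CPM) and Vip-like nuclei (121 CPM). The size of the ratio thus depends mostly on the Sst-like class. Grin2d, the slowly decaying GluN2D subunit, was at 7.95, 10.7, 9.35 and 7.14 CPM in excitatory-like nuclei, against 34.5, 39.6, 41.8 and 38.6 CPM in inhibitory-like nuclei. Its log2 ratio was -2.16 (-2.32 to -1.999), with no overlap between libraries.

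Grin2a lay just short of the 2-fold size. It was at 1936, 1983, 2233 and 2033 CPM in excitatory-like nuclei, against 1151, 904, 1027 and 1009 CPM in inhibitory-like nuclei, a log2 ratio of 0.99 (0.96 to 1.01) with higher values in 4 of 4 libraries. It passed the size when library 1 was left out, when libraries had equal weight and when nuclei were thinned to 1500 UMIs. Grin2b (0.44, 0.42 to 0.46) and Grin1 (0.40, 0.35 to 0.45) differed less. Both were higher in excitatory-like nuclei of every library, at 2105 against 1552 CPM and 394 against 298 CPM. Grin2c had 52 UMIs in excitatory-like and 37 in inhibitory-like nuclei, under the minimum for a call.

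Neurons of the cortex, excitatory-like and inhibitory-like together, were then set against named non-neuronal-like nuclei. Of 6 subunits, 3 were higher and 1 lower, against 15.2% higher and 25.6% lower of 16485 genes. Grin2a was at 1907 CPM in neurons and 127 CPM in non-neuronal-like nuclei (log2 ratio 3.91, 3.82 to 3.998), Grin2b at 2041 and 229 CPM (3.16, 3.09 to 3.22) and Grin1 at 383 and 59.5 CPM (2.69, 2.56 to 2.82). Non-neuronal-like levels of these 3 genes were close to those in microglia-like nuclei, which limits these ratios. With at most 1% mitochondrial UMIs they were 1.04, 1.06 and 0.95 on the log2 scale for Grin2a, Grin2b and Grin1, and Grin1 was no longer called. With doublets kept they were 2.37, 2.05 and 1.91. Without library 4 the ratio of Grin2a was 4.61. Grin2c was at 0.785 CPM in neurons and 63.9 CPM in non-neuronal-like nuclei (-6.35, -6.69 to -6.02).

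Grin2d and Grin3a crossed the divide between neurons and glia. Grin2d was at 11.95 CPM in neurons and 7.49 CPM in non-neuronal-like nuclei (log2 ratio 0.67, 0.31 to 1.06). Grin3a was at 73.5 CPM in neurons and 107 CPM in non-neuronal-like nuclei (-0.55, -0.64 to -0.45), lower in neurons of all 4 libraries but within 2-fold. Both kinds hold classes that are high and classes that are low, as the class values show.

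**Figure D2:**
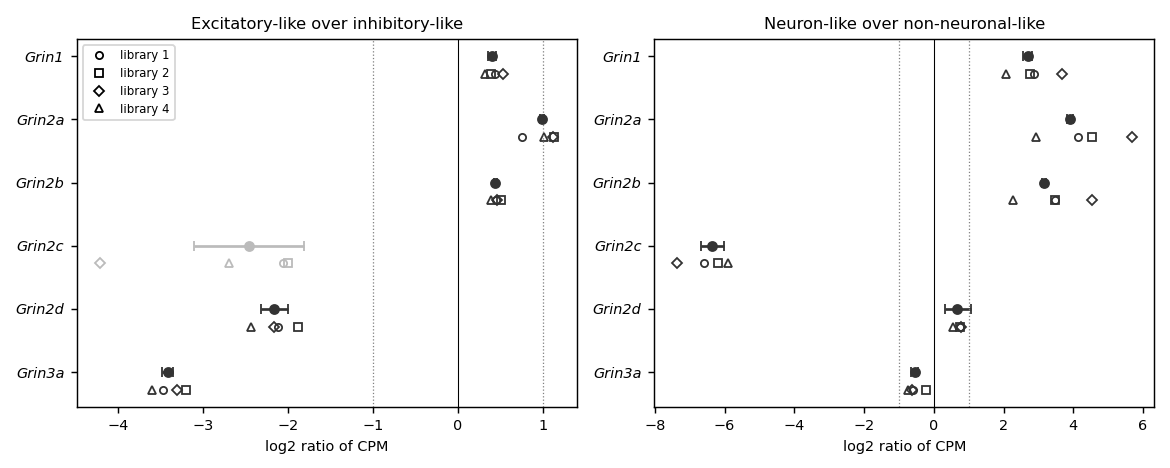
Log2 ratio of CPM (x axis) of each subunit gene (rows), excitatory-like over inhibitory-like nuclei at left and neuron-like over non-neuronal-like nuclei at right. Filled points are all libraries with exact 95% intervals (counting error only), open symbols below them the 4 libraries, grey marks a gene under 100 UMIs, and dotted lines mark 2-fold. Grin3a at -3.42 and Grin2d at -2.16 lie left of the dotted line in the left panel, and Grin2a at 0.99 lies on it.

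Each subclass was next set against the other subclasses of its kind, 16 comparisons giving 96 values, of which 80 had 100 UMIs or more. Subunits were called higher 5 times and lower 14 times, against 4.62% and 9.63% of the 199057 gene values tested in these comparisons. Grin3a gave 3 higher and 7 lower calls, Grin2a 1 and 3, and Grin2c 1 and 4. Grin1, Grin2b and Grin2d gave 0 calls; Grin1 and Grin2b had 16 tested values each and Grin2d 11.

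Grin1, the obligatory subunit, spanned 298 CPM in L6b-like nuclei to 421 CPM in L6 corticothalamic (CT)-like nuclei among excitatory-like classes. The inhibitory-like classes lay between 259 CPM in Vip-like and 340.3 CPM in Sst-like nuclei. In the order of 17 classes, neighbours overlapped in their library ranges in all but 2 of 16 steps. Those 2 steps were L5/6 near-projecting (NP)-like above Sst-like nuclei, and Vip-like nuclei above oligodendrocyte precursor-like (OPC-like) nuclei, which separates neurons from glia.

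Grin2b varied 1.93-fold among excitatory-like classes and 1.23-fold among inhibitory-like ones. L2/3 intratelencephalic (IT)-like nuclei were highest, at 2551, 2748, 2546 and 2522 CPM in libraries 1 to 4, above L5 ET-like nuclei with 2228 to 2372 CPM. L6b-like nuclei were lowest of the neurons at 1187 to 1378 CPM. MSN-like nuclei, at 1847 CPM, and Vip-like nuclei, at 1742 CPM, lay among the excitatory-like classes. A Grin2b UMI was seen in 99.8% of excitatory-like nuclei (median 10907 UMIs), 99.5% of inhibitory-like nuclei (8723 UMIs) and 32.1% of microglia-like nuclei (2353 UMIs). Thinned to 1500 UMIs, which left out 25, 3 and 53 nuclei of these groups, the shares were 94.0%, 88.1% and 22.7%.

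Grin2a, the subunit whose share rises as cortex matures, varied 4.30-fold among excitatory-like and 6.30-fold among inhibitory-like classes. Lamp5-like nuclei, the neurogliaform-type interneurons, held 3377, 2977, 3804 and 3183 CPM in libraries 1 to 4, against 787 CPM in the other inhibitory-like subclasses. The log2 ratio was 2.04 (1.98 to 2.09), a 4.10-fold higher level, in a direction in which 3.16% of 10361 genes were called. The call was lost with at most 1% mitochondrial UMIs, though the ratio was 1.99 to 2.65 over the 12 alternatives with a value. Every Lamp5-like library lay above every library of L5 ET-like nuclei, the next class, at 2405 to 2872 CPM.

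Pvalb-like nuclei held 849.7, 438, 561 and 526 CPM of Grin2a, against 1363 CPM in the other inhibitory-like subclasses (log2 ratio -1.21, -1.27 to -1.16, among 5.10% of genes called lower). Vip-like nuclei held 566, 383, 541 and 584 CPM, against 1110.3 CPM (-1.11, -1.21 to -1.02, among 6.36% called lower). The 2 classes overlap each other, and both lie below every library of Sst-like nuclei at 1041 to 1581 CPM. The call in Vip-like nuclei was lost when nuclei were thinned to 1500 UMIs (-0.75), and also with at most 1% mitochondrial UMIs.

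Among excitatory-like classes the low one was L6b, the remnant of the subplate. L6b-like nuclei held 639, 668, 381 and 551 CPM of Grin2a, against 2063 CPM in the other excitatory-like subclasses. The log2 ratio was -1.79 (-1.87 to -1.72), a call that 10.8% of 15219 genes shared. Library 3 gave 12 of the 188 nuclei. The other 6 excitatory-like classes ranged from 1749 CPM in L6 CT-like to 2563 CPM in L5 ET-like nuclei.

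The L6 CT-like class held 2 clusters that differed in Grin2a, a contrast chosen after its values were seen. Cluster 4 (1052 nuclei) held 2458, 2769, 2700.4 and 2378 CPM, against 1286, 1225, 1434 and 1254 CPM in cluster 5 (1413 nuclei). The log2 ratio was 0.98 (0.95 to 1.00), just under the 2-fold size that 3.19% of 11819 genes passed in either direction. Grin2b was even, at 1811 CPM in cluster 4 and 1892 CPM in cluster 5 (-0.06, -0.09 to -0.04).

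Because both genes keep their own length, the share of Grin2a among Grin2a plus Grin2b UMIs can be compared across classes. It was 49.0% in excitatory-like nuclei (47.8, 47.4, 50.7 and 50.4% in libraries 1 to 4), against 39.7% in inhibitory-like nuclei (42.7, 36.7, 39.3 and 39.7%). The libraries do not overlap, and the log2 of the ratio of ratios was 0.55 (0.51 to 0.58, counting error only). Inhibitory-like classes held both ends of the range.

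Lamp5-like nuclei had the highest share, 69.4% (68.1 to 72.9% over libraries), above L5/6 NP-like nuclei at 56.7% (54.1 to 58.2%). L5 ET-like (52.7%), L4/5 IT-like (51.0%), L6 IT-like (49.6%) and L6 CT-like nuclei (48.4%) followed. In this order each class lay above the next in 3 or 4 of 4 libraries, and L6 CT-like nuclei above L2/3 IT-like nuclei in 4 of 4. L2/3 IT-like nuclei were at 44.6% and Sst-like nuclei at 44.0%. MSN-like nuclei (35.2%), L6b-like (30.8%), Pvalb-like (27.8%) and Vip-like nuclei (22.7%) were lowest among neurons. In Pvalb-like nuclei library 1 stood at 35.4% and the others at 22.6 to 27.5%.

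Both classes that held more than 1 cluster had clusters of unlike share. Cluster 4 of the L6 CT-like nuclei had a Grin2a share of 58.1% (56.6 to 58.9% over libraries) and cluster 5 a share of 40.3% (38.7 to 41.7%). In the Sst-like class the 27 nuclei of cluster 12, led by Chodl, a gene of long-range projecting Sst neurons, were at 71.6%, and the 397 nuclei of cluster 11 at 41.3%. In cluster 12 Grin2a was at 2840.1 CPM and Grin2b at 1129 CPM, from 2 to 9 nuclei per library.

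**Figure D3:**
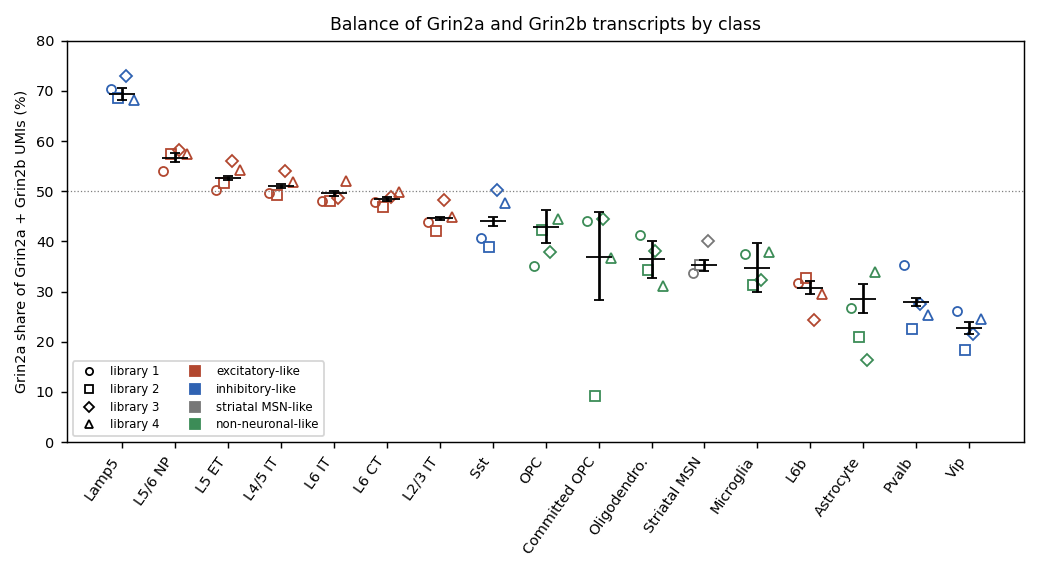
Share of Grin2a among Grin2a plus Grin2b UMIs (y axis, %) in the 17 named classes (x axis, ordered by share). Bars are all libraries with exact Clopper-Pearson 95% intervals (counting error only), and symbols are the 4 libraries, with the single MSN-like nucleus of library 4 left out. Lamp5-like nuclei lie at 69.4%, most excitatory-like classes between 44.6% and 56.7%, and L6b-like, Pvalb-like and Vip-like nuclei at 22.7 to 30.8%.

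Single nuclei were read where they held 10 or more UMIs of the 2 genes, 8057 of 8273 excitatory-like and 1099 of 1346 inhibitory-like nuclei. The median Grin2a share was 46.9% in excitatory-like nuclei (10th to 90th percentile 26.9 to 64.9%), against 26.7% in inhibitory-like nuclei (0 to 70.4%). The standard deviation between nuclei was 14.9 percentage points in excitatory-like and 26.7 in inhibitory-like nuclei, where counting alone would give 8.39 and 10.9. Both genes were seen in 99.6% of these excitatory-like nuclei and 79.7% of these inhibitory-like nuclei.

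In Pvalb-like nuclei the median share of the 452 nuclei used was 10.0%, while the 90th percentile was 58.6%, and 16.4% held more Grin2a than Grin2b. Only 68.8% of them held both genes, with a median of 20 UMIs of the pair, against 100% of 939 L5 ET-like nuclei, with a median of 65 UMIs. In Lamp5-like nuclei the median was 70.8% and 82.9% of 117 nuclei held more Grin2a. Free RNA may add Grin2a and Grin2b to all nuclei, and its part in these shares was not tested.

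**Figure D4:**
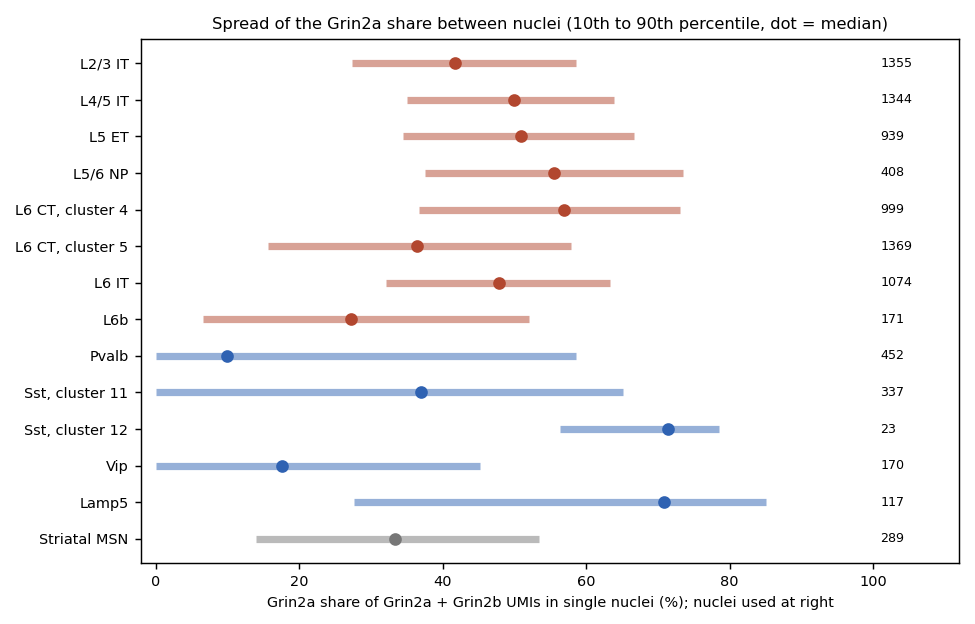
Share of Grin2a among Grin2a plus Grin2b UMIs in single nuclei (x axis, %) for neuron classes and the clusters of the L6 CT-like and Sst-like classes (rows). Dots are medians, bars run from the 10th to the 90th percentile, and the number of nuclei with 10 or more such UMIs stands at right. Pvalb-like nuclei have a median of 10.0% with a bar reaching 58.6%, and the L6 CT-like clusters have medians of 56.9% and 36.4%.

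Grin3a ranged from 9.36 to 1033 CPM among cortical neuron classes. Sst-like nuclei, the dendrite-targeting interneurons, held 932, 1105, 1088 and 1041 CPM in libraries 1 to 4, against 75.3 CPM in the other inhibitory-like subclasses. The log2 ratio was 3.78 (3.66 to 3.90), a 13.7-fold higher level in a direction called for 2.55% of 10361 genes. These 424 nuclei, 3.26% of those kept, held 43.8% of all Grin3a UMIs. A UMI was seen in 96.7% of Sst-like nuclei (median 8863.5 UMIs) and 4.14% of microglia-like nuclei (2353 UMIs), or 68.6% and 1.76% after thinning.

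Both Sst-like clusters held it, at 901 CPM in cluster 12 and 1042 CPM in cluster 11. The other inhibitory-like classes were far lower. Vip-like nuclei held 121 CPM (65.7 to 162 CPM over libraries), Lamp5-like 113 CPM (16.3 to 172 CPM) and Pvalb-like 51.4 CPM (42.3 to 77.2 CPM). Each was called lower than the rest of its kind, with log2 ratios of -1.78, -1.82 and -3.61, while 6.36%, 6.31% and 5.10% of genes were. Sst-like nuclei are part of the rest in all 3 comparisons. With at most 1% mitochondrial UMIs, where no Sst-like class was named, none of the 3 was called, and the ratios were 1.05, -0.003 and -0.89.

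Among excitatory-like classes, L5/6 NP-like nuclei held 117, 135, 78.3 and 119 CPM of Grin3a, against 28.5 CPM in the others (log2 ratio 2.05, 1.91 to 2.20), a call higher that 4.53% of genes shared. L2/3 IT-like nuclei lay next at 46.5, 67.9, 45.4 and 46.8 CPM, against 28.1 CPM in the others (0.88, 0.77 to 1.00), under 2-fold. L6 CT-like nuclei were lowest at 7.83, 9.05, 13.5 and 9.48 CPM, against 40.8 CPM (-2.12, -2.32 to -1.93), where 7.64% of genes were called lower. L6 IT-like and MSN-like nuclei were also low, at 19.6 and 9.60 CPM.

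In glia, OPC-like nuclei held 449, 420.0, 483 and 373 CPM of Grin3a, against 30.2 CPM in the other non-neuronal-like classes. The log2 ratio was 3.80 (3.57 to 4.03), a 13.9-fold higher level in a direction called for 8.26% of 10216 genes. A UMI was seen in 75.5% of 375 OPC-like nuclei (median 3933 UMIs), or 47.4% after thinning. Along the oligodendrocyte lineage the level was 420.4 CPM in OPC-like, 86.6 CPM in committed OPC-like and 18.7 CPM in oligodendrocyte-like nuclei, and no 2 of these library ranges overlap. Oligodendrocyte-like (-3.04), microglia-like (-2.62) and astrocyte-like nuclei (-1.75) were called lower, with 20.8%, 18.3% and 16.6% of genes, against a rest that includes OPC-like nuclei. With at most 1% mitochondrial UMIs, where no OPC-like class was named, the microglia-like and astrocyte-like calls were lost (-0.16 and 0.16).

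Relative to the obligatory subunit, Sst-like nuclei stood apart among neurons, with 3.04 Grin3a UMIs per Grin1 UMI. The ratio was 0.47 in Vip-like, 0.353 in Lamp5-like, 0.321 in L5/6 NP-like, 0.185 in Pvalb-like and 0.0223 in L6 CT-like nuclei. It is not read in OPC-like nuclei, whose 57.7, 72.7 and 59.97 CPM of Grin1 in libraries 1 to 3 lie near the microglia-like level. The ratio serves to compare classes only, since which gene is higher depends on the length used. Per kilobase of exon, Sst-like nuclei held 84.2 CPM of Grin3a and 35.1 of Grin1. Per kilobase of gene span they held 5.61 and 12.2 CPM.

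Grin1, Grin2a and Grin2b in OPC-like nuclei depended on library 4. Grin2a was at 89.2, 89.2 and 38.8 CPM in libraries 1 to 3 and at 507 CPM in library 4, and Grin2b at 165, 122 and 63.5 CPM and 634 CPM. There, 13 of 97 nuclei with 10 or more UMIs of the 2 genes held 86.0% of those UMIs. Without such nuclei library 4 had 88.7 CPM of Grin2a and 152 CPM of Grin2b. Without library 4 the log2 ratio of OPC-like over other non-neuronal-like nuclei was -0.04 for Grin2a, and with it 1.16. What sets these nuclei apart was not tested.

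**Figure D5:**
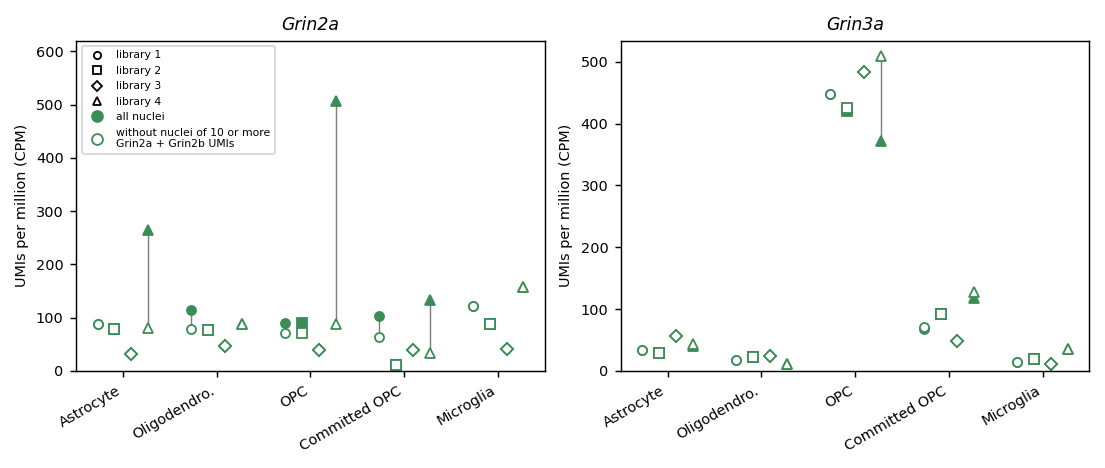
Grin2a (left) and Grin3a (right) levels (y axis, CPM) in the 5 non-neuronal-like classes (x axis) by library. Filled symbols are all nuclei, open symbols leave out nuclei with 10 or more Grin2a plus Grin2b UMIs, and a line joins the 2 values. In OPC-like nuclei of library 4 Grin2a is at 507 CPM with those nuclei and 88.7 CPM without them, while Grin3a is between 373 and 483 CPM in every library with them.

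Astrocyte-like nuclei were the class of Grin2c, which encodes the weakly magnesium-sensitive GluN2C. They held 290.4, 234, 356 and 190.4 CPM in libraries 1 to 4, against 2.79 CPM in the other non-neuronal-like classes. The log2 ratio was 6.51 (5.83 to 7.28), a 91.1-fold higher level in a direction called for 9.29% of 10216 genes. A UMI was seen in 59.3% of 516 astrocyte-like nuclei (median 3698 UMIs) and 1.18% of microglia-like nuclei, or 32.1% and 1.32% after thinning. These nuclei held 79.4% of all Grin2c UMIs.

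Of the UMIs of the 4 Grin2 genes in astrocyte-like nuclei, 35.2% were Grin2c (46.6, 38.0, 65.3 and 19.6% in libraries 1 to 4), against 0.0125% in excitatory-like and 0.109% in inhibitory-like nuclei. Grin2b, at 242, 298, 158 and 514 CPM, lay above microglia-like nuclei (204, 195, 87.5 and 257 CPM) in each library. It was seen in 56.98% of astrocyte-like nuclei, or 33.5% after thinning. In library 4, 7 of 121 astrocyte-like nuclei had 10 or more Grin2a plus Grin2b UMIs, and held 56.8% of those UMIs. Without such nuclei library 4 had 79.96 CPM of Grin2a, against 264 CPM with them, and 309 CPM of Grin2b. Grin2a over all libraries, at 132 CPM, lay near the 99.3 CPM of microglia-like nuclei. The Grin2c share thus depends on Grin2a counts not read as expression, and in library 4 on few nuclei. Grin1, at 49.99 CPM, was below the 73.1 CPM of microglia-like nuclei. Slc17a7 was lower in astrocyte-like nuclei too, at 154 against 241 CPM, so Grin1 is not read there in either direction.

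Elsewhere Grin2c was sparse. Pvalb-like nuclei had 30 UMIs, at 4.23, 5.20, 4.35 and 6.43 CPM, against 0.97 CPM in the other inhibitory-like subclasses from 7 UMIs. Their log2 ratio, 2.43 (1.21 to 3.86), was above 0 in 4 of 4 libraries but fell under the minimum for a call. Microglia-like nuclei held 5.39 CPM. Oligodendrocyte-like (-5.56), OPC-like (-4.73) and microglia-like nuclei (-3.79) were called lower than the rest, which includes astrocyte-like nuclei, with 20.8%, 15.0% and 18.3% of genes. Committed OPC-like nuclei had 0 UMIs, at least 12.1-fold lower than the 68.2 CPM of the rest against a limit of 3 counts for the class, where 21.4% of genes were called lower. Without library 2 the ratios were 7.26 in astrocyte-like, -6.19 in oligodendrocyte-like and -4.84 in microglia-like nuclei, and without library 4 it was -5.47 in OPC-like nuclei. L6b-like nuclei also had 0, which allows up to 1.27 CPM.

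Grin2d was an inhibitory-like gene at low level. Lamp5-like nuclei held 43.8, 54.4, 65.3 and 40.7 CPM, Sst-like 36.7, 38.3, 40.3 and 47.9 CPM, Vip-like 34.8, 41.3, 54.7 and 35.2 CPM and Pvalb-like 30.3, 35.8, 34.8 and 32.2 CPM. Pvalb-like nuclei lie below every library of Sst-like and Lamp5-like nuclei and overlap Vip-like ones, and the other 3 classes overlap one another. All 4 lie above every other class in every library. Excitatory-like classes ranged from 5.65 CPM in L5 ET-like to 11.8 CPM in L6b-like nuclei, against 4.62 CPM in microglia-like nuclei. Grin2d made up 1.47% of Grin2 UMIs in inhibitory-like nuclei and 0.207% in excitatory-like nuclei.

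OPC-like nuclei were the non-neuronal-like class with the most Grin2d, at 23.6, 14.1, 21.2 and 20.1 CPM from 33 UMIs. The 4 libraries lie above those of microglia-like nuclei (0 to 8.05 CPM). The ratio to the other non-neuronal-like classes was 2.11 on the log2 scale, but with 64 UMIs in all non-neuronal-like nuclei it fell under the minimum for a call.

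Nuclei of a class were split by whether they held a UMI of the reporter transcript (TREmcherry). Reporter UMIs were seen in 8.19 to 12.6% of nuclei in the 5 classes with 50 or more such nuclei, and in 5.52% of microglia-like nuclei, with a median depth of 9855 to 14080 UMIs in the 5 classes and 2353 UMIs in microglia-like nuclei. The part of free reporter RNA in the split was not tested, so it is not read as activation. Of the 720 nuclei in these classes, 333 came from library 4 and 30 from library 3. Subunits gave 23 tested values of 30 and 0 calls, against 0.649% of 53462 gene values called. Log2 ratios of reporter-positive over reporter-negative nuclei ran from -0.34 to 0.60, with a median of -0.09.

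Grin1 had ratios below 0 in all 5 classes, all far from the 2-fold size, and lower values in all 4 libraries in 3 of them. In L6 CT-like nuclei it was at 370.5 CPM in reporter-positive and 427 CPM in reporter-negative nuclei (log2 ratio -0.20, -0.30 to -0.11), lower in 4 of 4 libraries. Ratios in the other 4 classes were -0.09 to -0.18, and the interval in L4/5 IT-like nuclei spanned 0. Grin2b lay between -0.05 and 0.04 in all 5. The highest ratio, 0.60 (0.22 to 0.95), was for Grin3a in L5 ET-like nuclei, which was higher in 2 of 4 libraries and lower in 2. Reporter-positive nuclei had more UMIs in all 5 classes (median 15481 against 13914 in L5 ET-like nuclei), and the part of depth was not tested.

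Genes that hold, modify or feed the receptor gave context. Of 57 partner genes, 55 could be read in excitatory-like against inhibitory-like nuclei, where 9 were higher and 5 lower, with a median log2 ratio of 0.02 beside -0.13 for all genes. Of all genes 9.14% were higher and 7.49% lower. Synaptic scaffolds gave 4 higher and 0 lower of 11, kinases and phosphatases 4 and 2 of 21, trafficking partners 1 and 1 of 14, and co-agonist genes 0 and 2 of 9 read. The largest ratios were those of Reln (-4.46), a secreted glycoprotein of some interneurons, Ptk2b (2.92), a calcium-activated tyrosine kinase, and Nos1 (-2.20), the neuronal nitric oxide synthase.

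Against non-neuronal-like nuclei, neurons had 25 partner genes higher and 7 lower of 55, with a median log2 ratio of 0.71 beside -0.40 for all genes. Of all genes 15.2% were higher and 25.6% lower. Scaffolds gave 6 higher of 11, kinases and phosphatases 11 higher and 1 lower of 21, and trafficking partners 8 higher and 1 lower of 14. Co-agonist synthesis and transport gave 0 higher and 5 lower of 9. The 3 largest were all in that last list and lower in neurons. They were Slc7a10, a D-serine and glycine transporter (-4.86), Psat1 (-3.70) and Phgdh (-3.23), enzymes of serine synthesis. In L6b-like nuclei, the class of low Grin2a, 9 of 55 partners were lower and 1 higher, against 10.8% and 3.02% of all genes, led by Rasgrf2 (-3.14), a calcium-responsive exchange factor, Nos1 (-2.45) and Prkca (-2.03), a protein kinase C.

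Genes whose log2(CPM + 1) followed a subunit most closely over the 17 classes were sought among 10730 genes, as a description, since classes share libraries and depth. For Grin1 they were Unc13a (r = 0.99), Syt1 and Crmp1 (0.98 each), and for Grin2b Armc9, Syt1 (0.98 each) and Unc13a (0.97). Grin2a was followed by Rbfox3, Snap25 and Trank1 (0.94, 0.93 and 0.93). Likeness was lower for Grin2d, with Bend4 (0.90), Col26a1 (0.89) and Minar1 (0.88), and for Grin3a, with Plxna3 (0.80), Fbxl12os (0.78) and Cul7 (0.76). Grin2c was followed by Cs (0.94), Lyrm4 (0.94) and Prdx6 (0.94). Between subunits, Grin1, Grin2a and Grin2b gave r of 0.93 to 0.97, and Grin2d and Grin3a 0.63. All these r values span neurons and glia, so they include the step between the 2 kinds, and no r was computed over neurons alone. Among neurons Grin2a and Grin2b could part. Lamp5-like nuclei held 3232 CPM of Grin2a, the most, but 1422 of Grin2b. Vip-like nuclei held 513 CPM of Grin2a, the least of the neurons, and 1742 of Grin2b.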

How the data were processed

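The authors deposited 1 pooled matrix of raw UMI counts. Per the submitters' processing notes, the authors used Cell Ranger 7.1.0 and build mm10. Whether intronic reads were counted is not given in the sources used here. Genes with much intron can gain from it.

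Barcodes under 500 genes or 800 UMIs, or over 5% mitochondrial UMIs, were removed (9132 in all), and 279 with a Scrublet score above 0.25 were left out as doublets. One score was used for all libraries because the automatic threshold marked 2 barcodes each in libraries 1 and 4. Counts were log-scaled and clustered on 2000 variable genes, 30 components and 15 neighbours with the Leiden method at resolution 1.0 (scanpy 1.11.5, Python 3.11.15, scipy 1.17.1). Sex-linked and mitochondrial genes, transgenes, subunits and partner genes were not among the variable genes. A cluster was named when at least 3 markers of a class were enriched 2-fold at 10 CPM or more. No other class could then score above 0.85 of the best. Excitatory-like clusters with under 3 enriched subclass markers were kept without a subclass. The other 4 clusters stayed unnamed. Class scores were close in clusters 1 and 7, and the best class differed between scores in cluster 22. Cluster 3 held microglial markers beside excitatory ones.

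UMIs were summed per class and divided by the class total. Ratios have exact conditional binomial intervals, levels exact Poisson and shares exact Clopper-Pearson intervals, all at 95% and for counting error only. The calculation was tested on simulated counts. Genes named beside the subunits are the 3 most alike per subunit (at least 500 UMIs, no marker) and at most the 3 called partner genes with the largest ratios. Members, marker lists and partner lists were chosen with earlier results of these data known. Gene positions came from GENCODE M21, and promoters from RefSeq (GRCm38.p6). Alternatives covered filters, doublets, resolution, thinning, library weights, the call rule and each library left out.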

Additional observations from a re-analysis of the deposited data

Results flagged for a closer look

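In each class with 10 or more nuclei per library and 100 or more UMIs of a subunit, the library farthest from the other 3 was examined by Dixon's criterion at 4 values. It picked out 7 of 61 class levels. Its rate of about 1 in 20 holds for values that are alike and unrelated. The samples differ in treatment and sex, and subunits of a class share nuclei, so no excess is read from the count. In OPC-like nuclei library 4 held 507 CPM of Grin2a, with the others at 38.8 to 89.2 CPM, and 154 CPM of Grin1, with the others at 57.7 to 72.7 CPM. In L2/3 IT-like nuclei library 3 held 2373 CPM of Grin2a (others 1989.7 to 2049 CPM), and library 2 held 2748 CPM of Grin2b (others 2522 to 2551 CPM) and 67.9 CPM of Grin3a (others 45.4 to 46.8 CPM). In L4/5 IT-like nuclei library 3 held 2376 CPM of Grin2a (others 2076 to 2079.98 CPM). In L5 ET-like nuclei library 2 held 374 CPM of Grin1 (others 412 to 414 CPM).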

How the results depend on the processing

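Of 25 subunit calls between classes, 24 have a finite ratio (Grin2c in committed OPC-like nuclei, at 0 UMIs, has none and was left out). All 24 were made again when each library was left out in turn, with libraries weighted equally, with doublets kept, with 1000 genes required and at resolutions 0.5 and 2.0. Thinning to 1500 UMIs lost 1. A limit of 20% mitochondrial UMIs gave values for 20 and kept all 20. A limit of 1% kept 3878 nuclei and gave values for 17 calls, of which 8 held. Under it, subunit calls over the subclass comparisons were 12 and those between neurons and non-neuronal-like nuclei 2. Grin3a reversed in Vip-like (1.05) and astrocyte-like nuclei (0.16), and the excitatory to inhibitory log2 ratio of Grin2a to Grin2b was 0.64. The cause was not tested. No class then had enough reporter-positive nuclei. Resolution 2.0 gave 30 subclass calls in 17 comparisons against 19 in 16. The share of all genes called was not computed under the alternatives, so changes in these counts are not read as particular to the subunits. The Grin2a to Grin2b value was 0.71 on thinned nuclei and 0.51 to 0.64 with 1 library left out. Leaving out glial nuclei rich in Grin2a and Grin2b, chosen after seeing the data, changed no count of calls. No paired test over the 4 libraries was made, because the barcode endings tie to no sample and the matrix counts as 1 sample. Classes were compared inside the same libraries, and directions within each library are counted instead. Grin2c in neurons and Grin2d in glia rest on under 100 UMIs each, which limits their ratios.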

Other observations

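The 4 unnamed clusters entered no comparison. Cluster 1 (213 nuclei), led by Top2a, a gene of dividing cells, and Igfbpl1, an immature neuron gene, held 843 CPM of Grin2b, 483 of Grin2a, 183 of Grin1 and 106 of Grin3a. Grin2b was at 913, 791, 144 and 1054 CPM in libraries 1 to 4, with 12 nuclei each in libraries 3 and 4. Cluster 22 (176 nuclei, median 1514 UMIs), with globin and endothelial markers, held 1268 CPM of Grin2b and 1056 of Grin2a. Cluster 7 (100 nuclei), of vascular markers, held 675 and 499 CPM, and cluster 3 (87 nuclei), of mixed microglial and excitatory markers, 1738 and 1799 CPM. Nuclei with 10 or more Grin2a plus Grin2b UMIs were 31 of 213 in cluster 1 and 29 of 176 in cluster 22. In cluster 3 they were 78 of 87. The part of the UMIs in such nuclei was not computed, so the levels of clusters 1 and 22 are not read as those of most nuclei.

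The 403 excitatory-like nuclei with no subclass held 83.5 CPM of Grin3a (78.1, 105, 66.4 and 65.0 CPM in libraries 1 to 4), second to L5/6 NP-like nuclei among excitatory-like groups, and 13.9 CPM of Grin2d.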
